A study of Mus musculus with 16 samples.

Results

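Transcripts of the collagen genes were measured in calf (gastrocnemius) muscle of male FVB/n mice with and without a deletion of the FoxO transcription factors. Members were all genes whose symbol has the form Col, number, a, number and that had a probe set annotated with no other symbol. There were 44 such genes. A gene was tested where 8 or more of the 16 arrays put it over their own median, which held for 38 members and for 13601 genes in all. The brightest probe set stood for each gene. The 6 members under this filter were Col4a4, Col6a4, Col6a5, Col10a1, Col19a1 and Col28a1. Both groups were homozygous for floxed Foxo1, Foxo3 and Foxo4 (FoxO1,3,4L/L). The 8 deletion mice (Mx1-Cre+, titled KO) also had the Cre recombinase under the interferon-inducible Mx1 promoter, and their 8 littermate controls (MxCre-, titled WT) had no Cre. All received 3 injections of polyinosine:cytidine at 4 to 5 weeks of age, which switches the promoter on. A diet with 58% fat was started at 7 to 8 weeks of age and given for 8 weeks, and all were killed at 16 weeks of age. The labels call the deletion endothelial-directed, although the Mx1 promoter is not specific to endothelial cells. Cre was present in the deletion mice only, so effects of Cre and of the deletion cannot be told apart.

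Collagens are extracellular proteins whose chains wind into a triple helix. Fibrillar collagens, chiefly types I, III and V, form the cables of tendon and of the sheaths around muscle fibres. Type IV forms the sheet-like network of basement membranes, which wraps each muscle fibre and each capillary and is made by endothelial cells among others. Type VI forms beaded filaments that link the basement membrane to the fibrils. FACITs (fibril-associated collagens with interrupted triple helices) sit on fibril surfaces, and the remaining types include network, transmembrane and basement-membrane-associated forms. In muscle, most fibrillar collagen comes from fibroblasts.

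Expression was read once per mouse on 1 array, as log2 values normalised by robust multi-array averaging (RMA). Array medians lay between 4.43 and 4.61 log2 units, and any pair of arrays correlated at 0.958 to 0.982. The 10 muscle fibre markers had mean levels between 11.3 and 12.3 in all 16 mice. Foxo1, Foxo3 and Foxo4 differed by 0.07, 0.50 and -0.24 log2 units and none passed the test, and the position of their probes relative to the floxed segments was not analysed here, so they do not check the deletion. Liver and plasma protein transcripts averaged above 6.5 log2 units in controls 2 and 7 and deletion mice 1, 2, 4 and 5. Schwann cell transcripts did so in control 1 and deletion mice 2, 4, 6 and 7.

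Both major chains of type IV collagen, Col4a1 and Col4a2, were higher with the deletion, and they were the only collagen genes past the threshold (limma adjusted p under 0.05 over all genes tested). Col4a1 was 1.66-fold and Col4a2 1.70-fold higher. The other 36 members did not pass, and none was lower. Over all 13601 genes 1.83% passed, 1.53% as higher and 0.301% as lower. At an unadjusted p under 0.05, 7 members were higher and 3 lower, where the shares over all genes were 10.5% and 6.82%. The median difference was 0.05 log2 units over the 38 members and 0.00075 over all genes tested, and 24 members had a positive and 14 a negative difference.

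**Figure D1:**
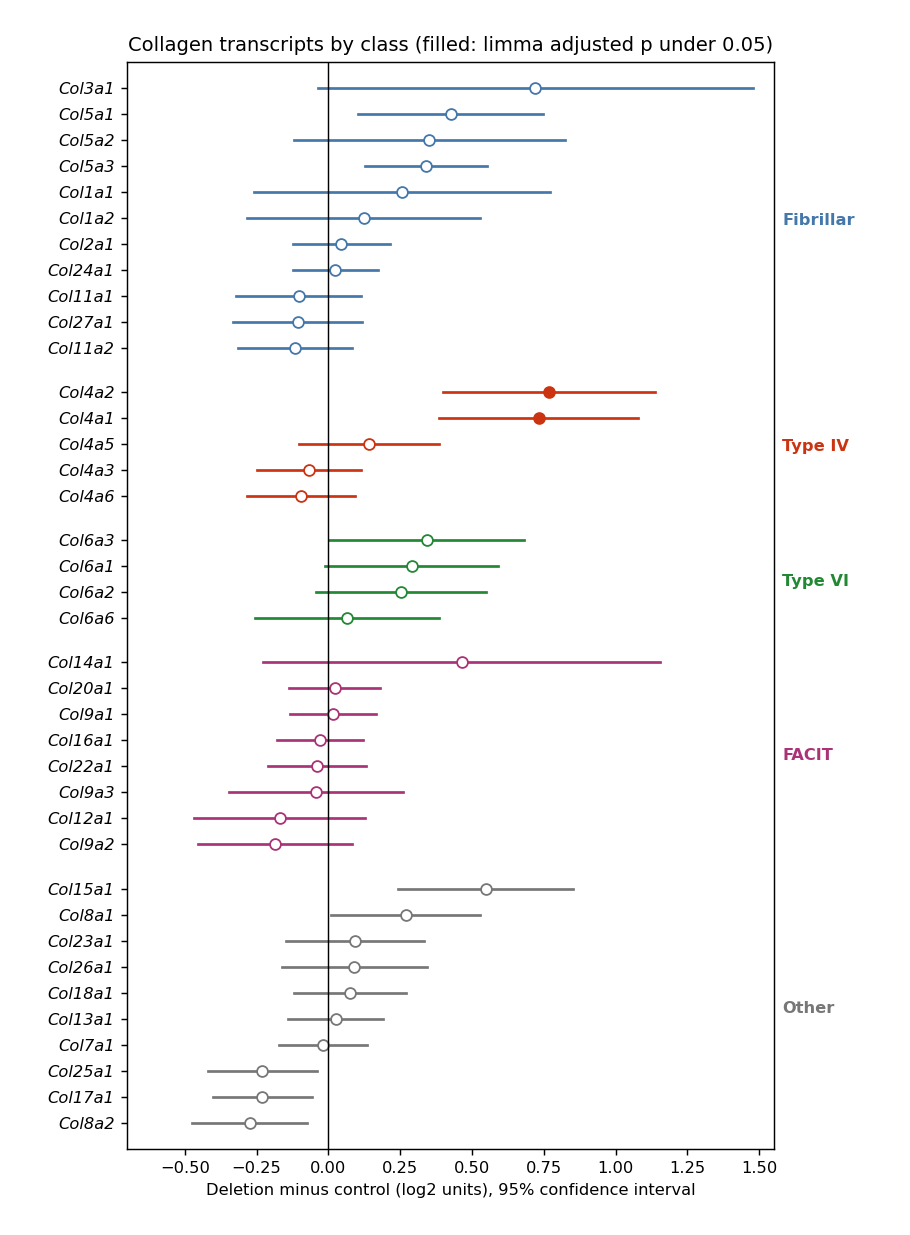
Difference between deletion mice and controls for each of the 38 collagen transcripts, in log2 units (x axis), grouped by class, with 95% confidence intervals from limma (n = 8 and 8). Filled points passed an adjusted p under 0.05, as only Col4a1 (0.73) and Col4a2 (0.77) did.

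The genes of these chains share a promoter region, which is shown because they moved together. In the RefSeq annotation of GRCm38.p6 their start sites lie 21 bases apart on opposite strands of chromosome 8, and the windows from 250 bases before to 50 after each start overlap. The shared 78 bases are in capitals, and each window is read 5′ to 3′ on its gene's strand. The Col4a1 window is chr8:11312777-11313076 (minus strand) and the Col4a2 window chr8:11312555-11312854 (plus strand).
Col4a1: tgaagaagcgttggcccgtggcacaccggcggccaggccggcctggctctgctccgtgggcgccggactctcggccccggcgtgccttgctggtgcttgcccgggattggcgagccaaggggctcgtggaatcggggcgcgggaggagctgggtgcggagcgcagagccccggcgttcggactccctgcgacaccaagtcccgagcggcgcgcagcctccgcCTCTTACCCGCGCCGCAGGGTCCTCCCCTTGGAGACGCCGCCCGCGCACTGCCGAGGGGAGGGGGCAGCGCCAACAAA
Col4a2: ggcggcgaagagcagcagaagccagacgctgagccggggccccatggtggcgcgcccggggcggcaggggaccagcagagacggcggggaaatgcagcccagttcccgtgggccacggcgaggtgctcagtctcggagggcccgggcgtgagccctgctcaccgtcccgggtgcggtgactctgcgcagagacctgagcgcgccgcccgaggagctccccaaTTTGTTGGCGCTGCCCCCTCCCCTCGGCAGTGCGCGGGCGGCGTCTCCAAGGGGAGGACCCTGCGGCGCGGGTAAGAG
Their GC contents were 74.0% and 73.7%, against a median of 52.7% over all promoter windows of this length. Both held a GC box (GGGCGG, either strand) and a CCAAT box (CCAAT, either strand), which 35.7% and 37.4% of the 32851 windows held. Of the 32 collagen windows matched, 65.6% held a GC box and 37.5% a CCAAT box, so neither box was particular to the type IV pair. Neither of the 2 type IV windows shown held the core FoxO recognition motif GTAAACA (either strand), found in 3.65% of all windows. Promoter windows were matched for 29 of the 38 members, 32 windows in all, and the motif was found in 1 of them. This was the Col6a1 window, where it lay at -211 from the start (chr10:76726238-76726266, minus strand, motif in capitals).
Col6a1: actctgagtggGTAAACAtcccacacacc
A match is a string of letters and does not show that the factor binds there, and the other windows were searched over these 300 bases alone.

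Col4a1 encodes the alpha 1 chain, which is present with Col4a2 in almost every basement membrane. In the controls Col4a1 ran from 6.84 to 7.80 log2 units with a median of 7.19, and in the deletion mice from 7.10 to 8.34 with a median of 8.09. In all, 6 of 8 deletion mice lay above every control, an arrangement found in 3.21% of the genes tested. The exceptions were deletion mouse 8, the lowest of its group at 7.10, and deletion mouse 1, at 7.77 just under control 4 at 7.80. The group means were 7.23 ± 0.33 and 7.96 ± 0.40 (SD, n = 8 each), a difference of 0.73 (SE 0.17, 95% interval 0.39 to 1.08, limma adjusted p = 0.0304, unadjusted exact two-sided permutation p = 0.00326).

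Col4a2 encodes the alpha 2 chain, the obligate partner of alpha 1. It ran from 6.20 to 7.28 with a median of 6.61 in the controls, and from 6.53 to 7.75 with a median of 7.51 in the deletion mice. Here too 6 of 8 deletion mice lay above every control, and control 4 was the highest control and deletion mouse 8 the lowest deletion mouse. The difference was 0.77 (SE 0.18, 95% interval 0.40 to 1.14, limma adjusted p = 0.0335, exact permutation p = 0.00311). Across the 16 mice the Col4a1 and Col4a2 levels had a Pearson r of 0.974 and a Spearman rho of 0.962 (permutation p = 1e-05 each, the smallest 100000 resamples can give). Within the controls r was 0.928 and within the deletion mice 0.960. Both calls were made narrowly. The Col4a1 call was lost without any 1 of controls 1, 2, 3, 7 and 8 or deletion mice 2, 4, 5, 6 and 7, with limma adjusted p-values of at most 0.0667, and the Col4a2 call without any 1 of controls 1, 2, 3 and 7 or deletion mice 1, 2, 4, 5, 6 and 7, at most 0.0751. Over all 16 fits without 1 mouse the differences ran from 0.68 to 0.85 and from 0.70 to 0.89.

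**Figure D2:**
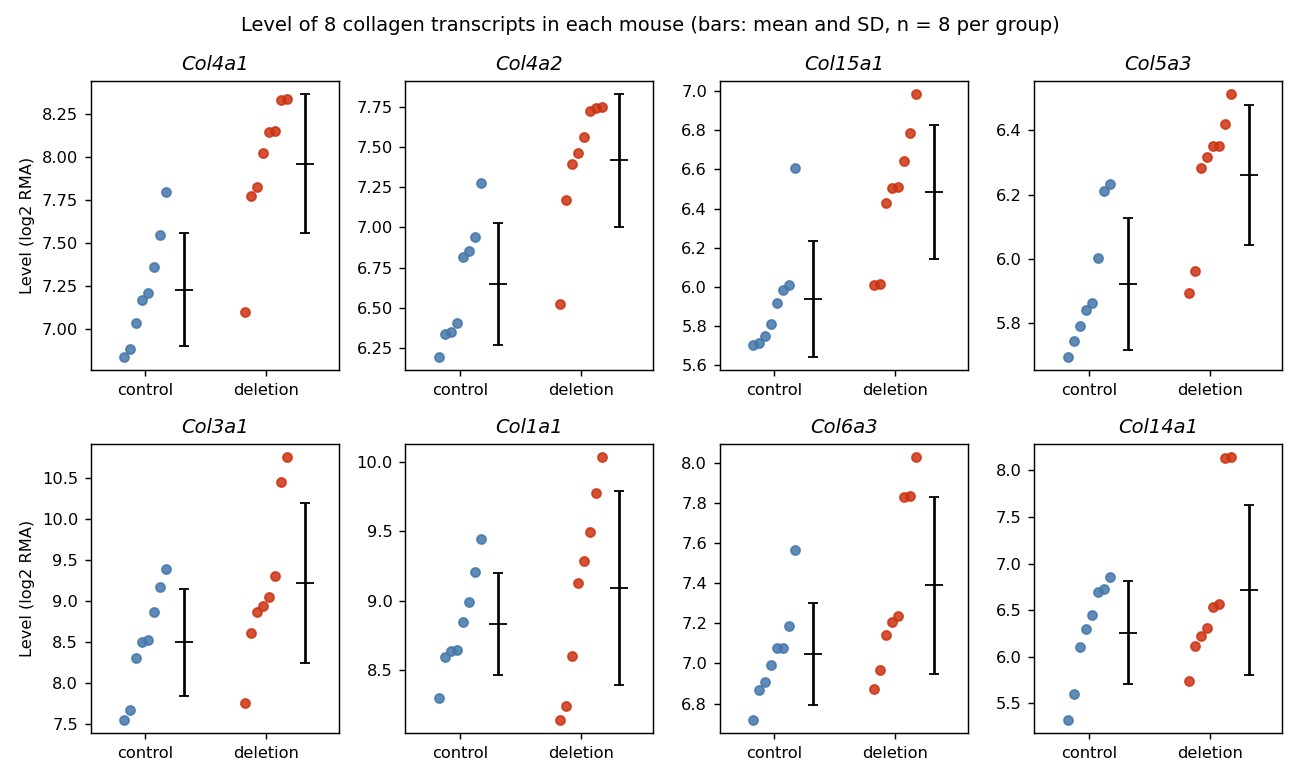
Level of 8 collagen transcripts in each mouse (y axis, log2 RMA units), controls in blue and deletion mice in red, with mean and SD beside the points (n = 8 per group). For Col4a1, Col4a2 and Col5a3, 6 of 8 deletion mice lie above every control. For Col3a1 and Col14a1, deletion mice 1 and 3 stand above the others.

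Markers of endothelial cells moved with the type IV chains. Of 14 listed markers without collagens, all were tested, 9 were higher and 0 lower over all genes, among them the transcription factor gene Erg (0.52, SE 0.08), the receptor phosphatase gene Ptprb (0.73, SE 0.12) and Cdh5, which encodes VE-cadherin (0.58, SE 0.10). The mean level of the list ran from 7.24 to 7.60 in the controls and from 7.49 to 8.09 in the deletion mice. Control 4 was the highest control and deletion mouse 8 the lowest deletion mouse on this list, as for both type IV chains. The same mice held these places for Col3a1, Col5a1 and Col15a1. They did so too on the lists of collagen processing, receptor and profibrotic genes, so this was not particular to endothelial markers. With the endothelial list mean of each mouse as a covariate, the difference was -0.0054 (SE 0.19) for Col4a1 and -0.067 (SE 0.18) for Col4a2. That fit called 4 genes among all 13601, 1 higher and 3 lower. The calls on Erg, Ptprb and Cdh5 were lost with the endothelial list, which holds them, or the tendon list as a covariate. They were also lost without the mice high in liver or in Schwann cell transcripts. In whole muscle, more cells of a type and more RNA per cell cannot be told apart. Pericytes and smooth muscle cells also make type IV collagen, and of their 10 markers 0 passed in either direction. Of these, 9 had a positive difference (median 0.15). At a limma unadjusted p under 0.05, 4 were higher and 0 lower. The list mean ran from 7.91 to 8.19 in the controls and from 7.90 to 8.46 in the deletion mice.

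The calls on both chains were also lost without the filter on dim probe sets, where the differences were the same. They were lost with other lists as a covariate, where the differences for Col4a1 and Col4a2 were 0.70 and 0.75 (liver), 0.68 and 0.73 (Schwann) and 0.57 and 0.70 (tendon). Among all genes those fits called 112 higher and 20 lower (liver), 30 and 7 (Schwann) and 15 and 5 (tendon). The calls were lost as well when the mice with high Schwann cell or liver transcripts were left out. Without the Schwann-high mice (7 controls and 4 deletion mice remained) the differences were 0.48 (SE 0.21) for Col4a1 and 0.50 (SE 0.22) for Col4a2. Without the liver-high mice (6 and 4 remained) they were 0.51 (SE 0.22) and 0.51 (SE 0.24). In these smaller sets the differences were positive and smaller than over all mice, at limma adjusted p-values between 0.396 and 0.522. Of the 6 Schwann markers tested 0 passed, all 6 had a positive difference (median 0.43) and 2 were higher at an unadjusted p under 0.05. Their list mean ran from 5.48 to 7.14 with a median of 5.73 in the controls and from 5.60 to 7.13 with a median of 6.54 in the deletion mice. The list of liver transcripts ran from 5.08 to 7.79 with a median of 5.42 and from 4.92 to 8.29 with a median of 6.21. Of its 7 tested members 0 passed, and all 7 had a positive difference (median 0.51). The part of either in the type IV levels was not tested beyond these fits.

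**Figure D3:**
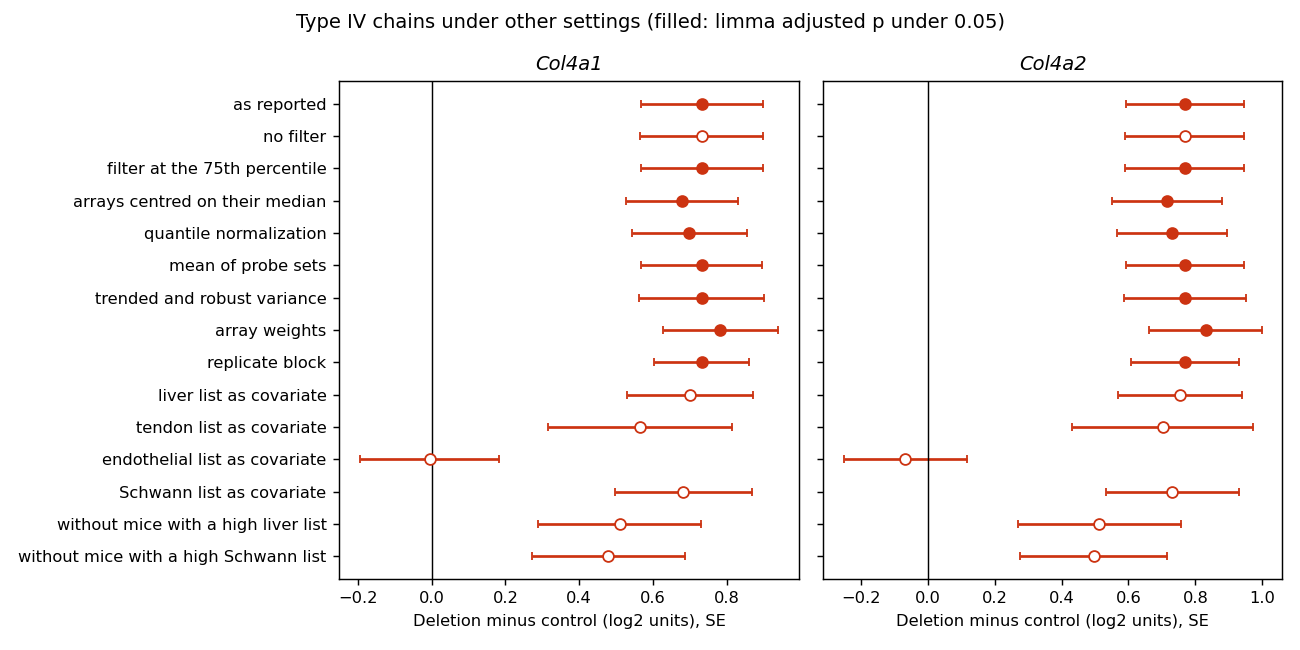
Difference between deletion mice and controls (x axis, log2 units, bars are SE) for Col4a1 and Col4a2 under each setting named on the y axis. Filled points passed a limma adjusted p under 0.05. With the endothelial list as a covariate both differences lie near 0, and the lowest value under the other settings shown is 0.48, for Col4a1 without the mice with a high Schwann list.

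The minor chains of type IV, which are best known from kidney, lung and eye, did not pass. Col4a5 differed by 0.14 (95% interval -0.10 to 0.38), Col4a6 by -0.10 (-0.29 to 0.09) and Col4a3 by -0.07 (-0.25 to 0.11). These transcripts were dim. In the deletion mice Col4a6 lay above the array median in 3 of 8 arrays and Col4a3 in 6 of 8. Col4a5 and Col4a6 are neighbours on the X chromosome in opposite orientation, like Col4a1 and Col4a2, and their differences had opposite signs. Col4a4, under the filter, had a difference of -0.01 (SE 0.09).

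Col15a1, a multiplexin of basement membranes around capillaries and muscle fibres, came next to the type IV chains. It ran from 5.71 to 6.61 with a median of 5.87 in the controls, and from 6.01 to 6.98 with a median of 6.51 in the deletion mice. Control 4, at 6.61, stood far above the other controls, the next at 6.01, and 3 deletion mice lay above it. The difference of 0.55 (SE 0.14, 95% interval 0.24 to 0.85) missed the threshold (limma adjusted p = 0.0618, exact permutation p = 0.00591). Leaving out control 4, deletion mouse 4 or deletion mouse 8 brought it past the threshold, with adjusted p-values down to 0.0178. With the endothelial list as a covariate the difference was 0.08 (SE 0.21). The other multiplexin, Col18a1, whose C-terminal fragment is endostatin, differed by 0.08 (-0.12 to 0.27).

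None of the 11 fibrillar chains passed, 8 having a positive and 3 a negative difference (median 0.12). The closest was Col5a3, the alpha 3 chain of type V collagen, which regulates fibril diameter. Its controls ran from 5.69 to 6.23 with a median of 5.85, and its deletion mice from 5.89 to 6.51 with a median of 6.33. Here 6 of 8 deletion mice lay above every control, and deletion mice 4 and 8 did not. The difference was 0.34 (SE 0.10, 95% interval 0.13 to 0.55, limma adjusted p = 0.0964, exact permutation p = 0.00901), and it passed without deletion mouse 8 (adjusted p = 0.0267). Col5a1, the main type V chain, ran from 6.13 to 6.89 with a median of 6.38 in the controls and from 6.34 to 7.65 with a median of 6.71 in the deletion mice. Its difference was 0.43 (SE 0.15, 95% interval 0.10 to 0.75, limma adjusted p = 0.164). The groups overlapped for both genes.

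The chains of the abundant interstitial collagens spread widely between deletion mice. Col3a1, the only chain of type III collagen, ran from 7.56 to 9.40 with a median of 8.51 in the controls and from 7.77 to 10.76 with a median of 8.997 in the deletion mice. Deletion mice 1 and 3, at 10.46 and 10.76, were the only mice above every control. The difference of 0.72 was close to that of Col4a1, with a wider interval (-0.04 to 1.48, SE 0.36, limma adjusted p = 0.311). Col1a1 and Col1a2, the chains of type I collagen, differed by 0.26 (-0.26 to 0.77) and 0.12 (-0.28 to 0.53). In Col1a1, 3 deletion mice lay above every control and 2 below every control. Col5a2, which neighbours Col3a1 in the genome, differed by 0.35 (-0.12 to 0.82). The remaining fibrillar chains, Col2a1, Col11a1, Col11a2, Col24a1 and Col27a1, differed by -0.12 to 0.05, and Col2a1, Col11a1 and Col11a2 are best known from cartilage.

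In the 6 pairs computed, levels of chains that assemble into one molecule or fibril varied together from mouse to mouse. Pairs of chains that do not assemble together were not computed, so whether this is particular to partner chains was not tested. Over 16 mice r was 0.975 for Col1a1 with Col1a2 (rho 0.944), 0.848 for Col1a1 with Col3a1 (rho 0.776) and 0.895 for Col5a1 with Col5a2 (rho 0.747). For Col6a1 it was 0.932 with Col6a2 (rho 0.897) and 0.925 with Col6a3 (rho 0.906). Adjusted over the 6 pairs computed, the permutation p-values were at most 9e-05 for r and 0.0012 for rho. Without the 2 mice farthest from the median of the first gene, r ran from 0.703, for Col1a1 with Col3a1, to 0.965, for Col4a1 with Col4a2. For all pairs but Col4a1 with Col4a2 those mice were deletion mice 1 and 3. Within the controls r ran from 0.736 to 0.955 and within the deletion mice from 0.873 to 0.989.

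**Figure D4:**
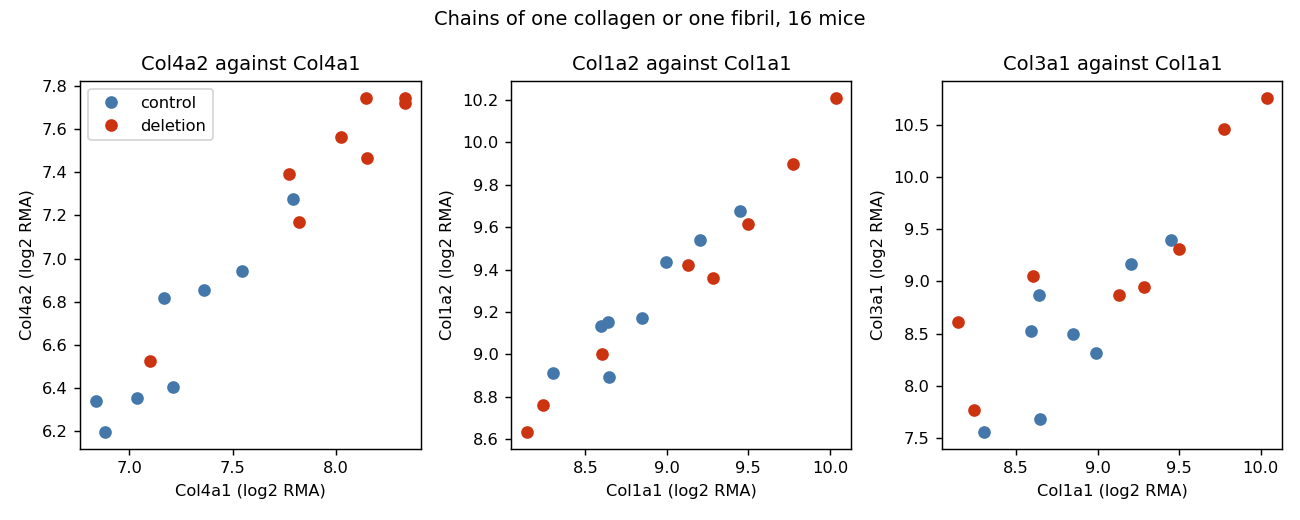
Levels of Col4a2 against Col4a1, Col1a2 against Col1a1 and Col3a1 against Col1a1 in 16 mice (log2 RMA units on both axes), controls in blue and deletion mice in red. The first pair (r = 0.974) separates most deletion mice from most controls, and on the Col1a1 axis of the other 2 panels deletion mice lie at both ends, while on the Col3a1 axis the lowest mice are controls.

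Type VI collagen had no member past the threshold, and its 4 tested chains all had positive differences (median 0.27). Col6a3, the largest chain of the common trimer, ran from 6.72 to 7.56 with a median of 7.03 in the controls and from 6.87 to 8.03 with a median of 7.22 in the deletion mice. Its difference was 0.34 (SE 0.16, 95% interval 0.003 to 0.68, limma adjusted p = 0.285). Col6a1 ran from 7.73 to 8.58 with a median of 8.03 in the controls and from 7.79 to 8.84 with a median of 8.36 in the deletion mice, a difference of 0.29 (SE 0.14, -0.01 to 0.59, limma adjusted p = 0.307). For each of these 2 genes 3 deletion mice, 1, 3 and 6, lay above every control, and the groups otherwise overlapped. Col6a2, the neighbour of Col6a1 on chromosome 10, differed by 0.25 (-0.04 to 0.55) and Col6a6 by 0.06 (-0.26 to 0.38).

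Of the 8 FACIT chains tested 0 passed, 3 having a positive and 5 a negative difference (median -0.04). Col9a2, a chain of cartilage type IX collagen, ran from 6.11 to 6.86 with a median of 6.42 in the controls and from 5.66 to 6.58 with a median of 6.38 in the deletion mice, a difference of -0.19 (SE 0.13, 95% interval -0.45 to 0.08). Col14a1, which coats fibrils in tendon and muscle connective tissue, ran from 5.32 to 6.86 with a median of 6.37 in the controls and from 5.74 to 8.15 with a median of 6.42 in the deletion mice. The medians were close, and deletion mice 1 and 3, at 8.15 and 8.13, stood far above the rest. The difference was 0.46 (SE 0.33, 95% interval -0.23 to 1.15, limma adjusted p = 0.490). Col12a1, a FACIT of tendon and myotendinous junction, differed by -0.17 (-0.47 to 0.13), and Col22a1, a FACIT restricted largely to tissue junctions such as that of muscle and tendon, by -0.04 (-0.21 to 0.13). Col9a1, Col9a3, Col16a1 and Col20a1 differed by -0.04 to 0.02.

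Fibroblasts and tendon cells are the main makers of fibrillar collagen. Of 15 fibroblast markers 13 were tested and 0 passed. Of these 8 had a positive difference (median 0.14) and 3 were higher at an unadjusted p under 0.05, and the list mean ran from 7.88 to 8.49 in the controls and from 7.94 to 8.72 in the deletion mice. Deletion mice 1 and 3, highest for Col3a1, were also highest on this list, both at 8.72, and on the macrophage list, at 7.50 and 7.81 against 6.21 to 6.94 in the controls. Of 10 macrophage markers 9 had a positive difference (median 0.46), 6 at an unadjusted p under 0.05, and 1 passed, the complement gene C1qa (0.56, SE 0.11). The C1qa call was lost with the tendon, endothelial or Schwann list as a covariate and without the liver-high or the Schwann-high mice. The part of fibroblasts and macrophages in the fibrillar levels was not tested. All 11 tendon markers were tested, 3 were lower and 0 higher. The 3 were the extracellular protein genes Fmod (-0.49, SE 0.10), Kera (-1.19, SE 0.24) and Chad (-0.48, SE 0.10). All 3 calls were lost with the tendon list, which holds them, or the endothelial or Schwann list as a covariate. They were also lost without the liver-high or the Schwann-high mice. The tendon list ran from 7.38 to 7.90 in the controls and from 7.05 to 7.49 in the deletion mice. With this list as a covariate the differences were larger for Col1a1 (0.90, SE 0.32), Col1a2 (0.69, SE 0.24) and Col3a1 (1.56, SE 0.49), and for Col12a1 the sign turned (0.35, SE 0.14). None of these 4 passed in that fit, with limma adjusted p-values between 0.196 and 0.347.

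**Figure D5:**
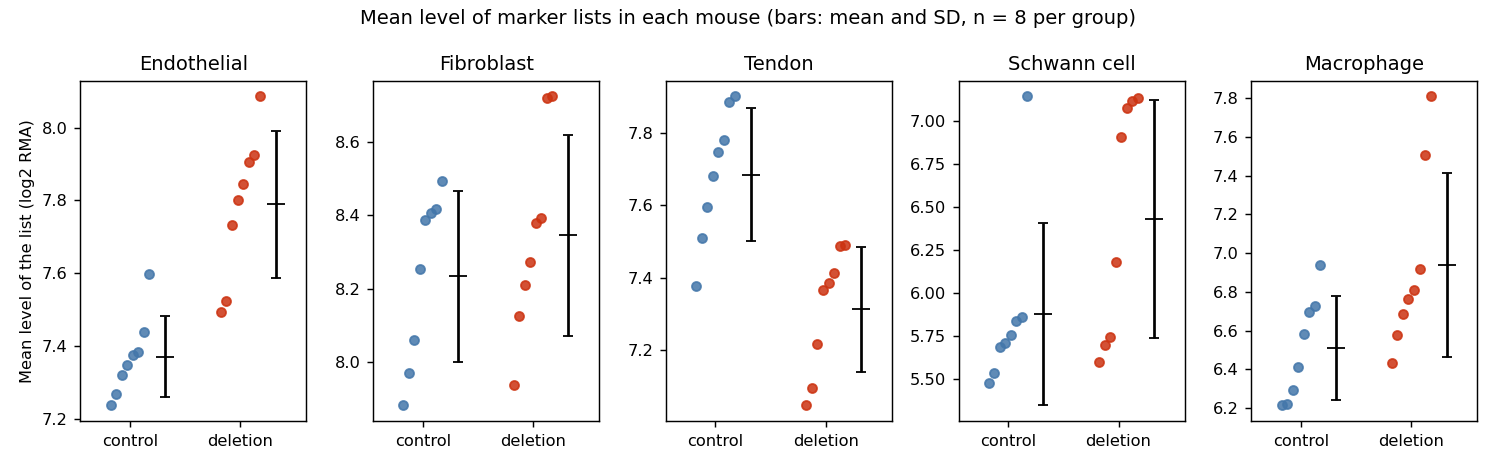
Mean level of the markers of 5 cell types in each mouse (y axis, log2 RMA units), controls in blue and deletion mice in red, with mean and SD (n = 8 per group). On the endothelial list 6 of 8 deletion mice lie above every control, and on the tendon list 4 of 8 lie below every control.

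The remaining class held 10 tested members, of which 0 passed. Next to Col15a1 the smallest p belonged to Col8a2, a short-chain network collagen, which ran from 4.79 to 5.37 with a median of 5.09 in the controls and from 4.505 to 5.03 with a median of 4.87 in the deletion mice. Its difference was -0.27 (SE 0.10, 95% interval -0.48 to -0.07, limma adjusted p = 0.153). Its partner chain Col8a1 differed in the other direction, by 0.27 (0.01 to 0.53, limma adjusted p = 0.268). The transmembrane collagens Col17a1, of hemidesmosomes, and Col25a1 differed by -0.23 each (-0.40 to -0.06 and -0.42 to -0.04). Col17a1 and Col8a2 were dim, and in the deletion mice they lay above the array median in 6 of 8 and 7 of 8 arrays. Col13a1, a transmembrane collagen of the neuromuscular junction, differed by 0.03 (-0.14 to 0.19). Col7a1, Col23a1 and Col26a1 differed by -0.02 to 0.09.

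Around the collagens, 1 gene passed in each of the lists of collagen maturation, receptors and profibrotic genes. Among 31 tested genes of collagen processing, Tll1, a tolloid-like protease that trims procollagen, was higher and 0 were lower. It ran from 4.65 to 5.15 with a median of 4.89 in the controls and from 5.23 to 6.24 with a median of 5.62 in the deletion mice, so that the groups did not overlap, as in 0.243% of the genes tested on the higher side. The difference was 0.84 (SE 0.13, limma adjusted p = 0.00406). The median difference of the 31 was 0.14, with 23 positive and 8 negative. At a limma unadjusted p under 0.05, 8 were higher and 1 was lower, P3h3 (-0.23, SE 0.08), which did not pass. The lysyl hydroxylase gene Plod1 (0.34, SE 0.09) and the crosslinking enzyme gene Tgm2 (0.49, SE 0.14) did not pass. Nor did the gene of the collagen-binding protein Sparc (0.37, SE 0.12) or Serpinh1, which encodes the collagen chaperone (0.19, SE 0.14). Among 10 tested receptors, Adgrg6, an adhesion receptor that binds type IV collagen, was higher and 0 were lower. It ran from 5.22 to 6.01 with a median of 5.58 in the controls and from 6.09 to 6.90 with a median of 6.44 in the deletion mice, again without overlap. The difference was 0.93 (SE 0.13, limma adjusted p = 0.00160), and both this call and that of Tll1 held whichever single mouse was left out. Both were lost with the endothelial list as a covariate (differences of 0.80 for Tll1 and 0.89 for Adgrg6) and without the liver-high mice (0.55 and 0.80), and that of Tll1 also with the tendon list (0.73). The type III collagen receptor Adgrg1 (0.53, SE 0.15) and the integrin gene Itga1 (0.18, SE 0.08) did not pass. Among 20 tested profibrotic genes Tgfb1, which encodes a growth factor of fibrosis, was higher by 0.53 (SE 0.12, limma adjusted p = 0.0287) and 0 were lower. Its controls ran from 6.03 to 6.73 with a median of 6.28 and its deletion mice from 6.33 to 7.14 with a median of 6.89. This call was lost without any 1 of controls 1, 3, 5, 6 and 7 or deletion mice 1, 2, 3, 5 and 6 (adjusted p at most 0.0658) and with the replicate number as a block (0.0876). It was lost as well without the filter, with each of the liver, tendon, endothelial and Schwann lists as a covariate, and without the liver-high or the Schwann-high mice. With the endothelial list as a covariate its difference was 0.20 (SE 0.18). Of the 20 profibrotic genes, which include Acta2 and Postn besides inducers of collagen transcription, 12 had a positive and 8 a negative difference (median 0.13). At a limma unadjusted p under 0.05, 3 were higher and 1 was lower, Scx (-0.35, SE 0.13), which did not pass.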

How the data were processed

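The authors deposited log2 expression per probe set, made with RMA; the submitters' processing notes name the oligo package without a version. Base 2 was inferred from the range of the values, 0.33 to 13.8. RNA labelling used 250 ng of total RNA per the labels' protocols. Because RMA equalises the arrays' distributions, a shift shared by every transcript is lost. For arrays the number of mice, 8 per group, limits the precision. Scan dates and the array's genome build were not used here. No gene lengths entered, so levels of different genes were not compared.

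Of 41345 probe sets, 23521 had 1 symbol in the platform annotation, 1814 several and 16010 none. One probe set that names Col6a1 among several symbols was not used. Groups were compared with limma 3.58.1 in R 4.3.3 (lmFit, eBayes, group as the only term, two-sided), with Benjamini-Hochberg adjustment over 13601 genes, and the procedure was tested on simulated data. Exact permutation tests took all 12870 splits. Genes given with their range by mouse were the members past the threshold and the 2 with the smallest p in each class, to which Col3a1 was added after its values were seen. Of the pathway lists, those past the threshold were so given, and of each marker list at most 3 that passed, by smallest p, were named. Members and lists were chosen with earlier results of these data known. Outside this rule, and chosen after their values were seen, are Plod1, Tgm2, Sparc, Serpinh1, P3h3, Adgrg1, Itga1 and Scx. Alternatives were no or a stricter filter, other normalizations, the mean of probe sets, other variance models, array weights, the replicate block, 4 marker lists as covariates and leaving out each mouse. Leaving out mice with a high liver or Schwann list was added after the data were seen. Promoter sequences are RefSeq's for GRCm38.p6.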

Additional observations from a re-analysis of the deposited data

Results flagged for a closer look

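In 52 groups of 8 mice (26 collagen genes in 2 groups), the highest or lowest mouse was set against its nearest neighbour, and 6 stood apart by more than Dixon's 95% critical share of the group's range, where chance gives about 1 in 20 groups. Deletion mouse 8 was the lowest deletion mouse for Col4a1 (7.10, the next at 7.77) and for Col4a2 (6.53, the next at 7.17). Control 4 was the highest control for Col15a1 (6.61, the next at 6.01). Control 1 was the lowest control for Col4a3 (4.40, the next at 4.69), and control 3 for Col4a5 (4.51, the next at 4.90). Deletion mouse 2 was the lowest deletion mouse for Col13a1 (5.11, the next at 5.43).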

How the results depend on the processing

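As reported, 2 collagen genes were higher and 0 lower. The count of higher genes was 4 with array weights and at an adjusted p under 0.10, where Col15a1 and Col5a3 joined Col4a1 and Col4a2. It was 3 with the filter at the 75th percentile, where Col15a1 passed (limma adjusted p = 0.0466). It was 0 without a filter, with the liver, tendon, endothelial or Schwann list as a covariate, and without the mice with a high liver or a high Schwann list. Leaving out each mouse in turn gave between 0 and 4 higher genes. The count of lower genes was 0 in every setting tried (limma), while 3 members were lower at an unadjusted p under 0.05 in the fit as reported. Without a filter more genes were tested and the adjusted p of Col4a1 rose to 0.0513 with the same difference. Leaving out mice also leaves fewer samples. For the covariates the cause was not tested. With the replicate number as a block (replicate block), Col4a1 and Col4a2 kept their calls at limma adjusted p = 0.0247 and 0.0414. Whether the numbers pair the mice is not known. Same-numbered mice had correlations between -0.08 and 0.25 in their deviations, and 4 of 8 pairs lay over 0.1. Of the 8 controls, 3 correlated best with the deletion mouse of their own number.

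Signs turned with the endothelial list as a covariate for Col4a1 (-0.0054), Col4a2 (-0.067), Col4a3 (0.0182), Col12a1 (0.0469), Col13a1 (-0.0187) and Col18a1 (-0.11). With the tendon list they turned for Col12a1 (0.35) and Col22a1 (0.0583), with centred arrays for Col13a1 (-0.0280), without the liver-high mice for Col12a1 (0.0176) and without the Schwann-high mice for Col4a6 (0.0026). Leaving out 1 mouse turned Col13a1 (-0.0082 without control 2, -0.0039 without deletion mouse 7), Col22a1 (0.0026 without control 4) and Col6a6 (-0.0071 without control 7, -0.0417 without deletion mouse 3). Over the fits without 1 mouse the highest values of Col13a1 and Col6a6 were 0.0826 and 0.126, and the lowest of Col22a1 was -0.0824. Among these genes only Col4a1 and Col4a2 had passed the threshold. Of the 12 members given as ranges, 11 changed sign in 1 or more settings and 0 passed in any. Centring each array moved the median difference of all genes to -0.05. The split of all calls was then 126 higher and 67 lower, against 208 and 41.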

Other observations

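Collagen genes with more than 1 probe set gave differences of the same sign in both. The dimmer Col1a2 probe set differed by 0.13 (SE 0.24), against 0.12 for the one used. The dimmer Col6a1 probe set differed by 0.21 (SE 0.13), against 0.29, and the dimmer Col5a1 probe set, under the filter, by 0.04 (SE 0.09), against 0.43. Of the other members under the filter, Col6a4 lay above the array median in 0 of 16 arrays and Col19a1 in 1. Of the markers of other cell types, Vcam1, listed for muscle stem cells and also made by activated endothelium, was higher by 0.79 (SE 0.12), and the fatty acid carrier gene Fabp4, listed for adipocytes, by 0.49 (SE 0.10). The Fabp4 call was lost with the replicate number as a block (limma adjusted p = 0.0645), with the tendon, endothelial or Schwann list as a covariate, and without the liver-high or Schwann-high mice. The Vcam1 call was lost with the tendon or endothelial list and without the liver-high mice. In those 2 lists no other tested member passed. Of the 7 muscle stem cell markers tested, 5 had a negative difference (median -0.17), and 3 were lower at a limma unadjusted p under 0.05. Of the 7 adipocyte markers tested, 6 had a positive difference (median 0.21). Of 9 neuromuscular junction markers and 10 muscle fibre markers 0 passed, with median differences of -0.07 and 0.02.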
